A study of Homo sapiens with 9 samples.

Results

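The mRNAs of the cytosolic chaperonin TRiC, also called CCT, were examined in RNA sequencing of a human breast cancer cell line with knockdown of the long noncoding RNA LINC00673. The 8 genes were chosen by name as the subunits of the complex, TCP1, CCT2, CCT3, CCT4, CCT5, CCT6A, CCT7 and CCT8, and each had a row among the 19930 genes with values in the deposited table. All 8 were among the 12884 genes that passed the expression filter, a minimum of 1 for the average FPKM of the 9 libraries, where FPKM, the usual unit, divides the fragments of a gene by its transcript length and by the depth of sequencing. The labels give 3 groups with 3 libraries each, all of the cell line MDA-MB-453 and all transfected. X453_NC is the control, and X453_1 and X453_2 both carry the label of Linc00673 knockdown, which the study made with siRNA. The labels give a harvest at 48 h after transfection for qRT-PCR and no separate time for sequencing. Nothing in the labels says that the libraries of a group came from separate cultures, so the p-values measure only the spread between these libraries, which may be technical. LINC00673 itself was not analysed here, so the depth of the knockdown in these libraries was not checked.

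TRiC is a barrel built from a pair of stacked rings, each holding all 8 subunits in a fixed order. Newly made actin and tubulin chains, and many proteins built from WD40 repeats, enter its chamber and fold there as the subunits bind and split ATP and a built-in lid closes. Prefoldin hands unfolded chains to it, and phosducin-like proteins assist it with particular clients. The complex is essential and is abundant in dividing cells.

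The label of the cell line was checked against its defining markers. MDA-MB-453 is known as a luminal line that expresses the transcription factor FOXA1. In these libraries FOXA1 lay between 0 and 0.04 FPKM. GATA3 lay between 0.41 and 0.88 FPKM and SPDEF between 0.57 and 1.24 FPKM, also near 0. A further 5 expected markers were detected, among them the epithelial keratin KRT8 at 3011 to 3773 FPKM and EPCAM at 287 to 330 FPKM. FGFR4 lay lower, at 17.9 to 33.1 FPKM, and so did ERBB2, at 11.8 to 17.8 FPKM. ERBB2 was listed because the line was expected to carry extra copies of this gene. Whether its level is that of an amplified gene was not tested, so it is not taken as bearing out the label. Of 6 measured genes expected near 0 in this line, ESR1 and PTPRC were at most 0.02 and 0.07 FPKM. VIM, an intermediate filament of mesenchymal cells, lay between 366 and 441 FPKM, FOSL1 between 84.8 and 156 FPKM, CAV1 between 33.9 and 56.3 FPKM and COL1A1 between 3.49 and 7.08 FPKM. The data thus go against what was expected from the label for FOXA1, GATA3 and SPDEF, and for VIM, FOSL1 and CAV1. The cells are called here the cells labelled MDA-MB-453. Marker levels moved with the groups. The expected markers summed to 6141 to 6621 FPKM in X453_NC, 5054 to 5557 FPKM in X453_1 and 5149 to 5602 FPKM in X453_2. That sum was mostly KRT8 and KRT18. The mean of KRT18 was 2433, 1770 and 1739 FPKM in the same order, and KRT8, ERBB2 and FGFR4 were lower with knockdown too. EPCAM, GATA3 and SPDEF had higher means with knockdown, EPCAM at 325 and 317 FPKM against 289 FPKM. The markers expected near 0 summed to 488 to 523, 621 to 636 and 631 to 647 FPKM. The part of the markers in the results below was not tested.

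The estimated depth was 23.4 to 28.0 M fragments a library, from the steps between low FPKM values. Pearson's correlation of log2(FPKM + 1) across genes, which are not independent replicates, was 0.994 to 0.996 within groups and 0.955 to 0.990 between groups. Each subunit ranked between 216 and 445 among the 12884 genes by mean FPKM and rested on an estimated 6619 to 19502 fragments in a library, so counting error was small beside the differences described.

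In the knockdown cells 4 subunits were higher than in the control, TCP1, CCT2, CCT5 and CCT6A, by 1.31-fold to 1.60-fold, and the other 4 were not called. A gene was called where the fold change was at least 1.3, which is 0.38 on the log2 scale, and the unadjusted P was at most 0.05, the criteria of the study, with limma on log2(FPKM + 1). By these criteria 4 of the 8 subunits were higher with X453_1 and 0 lower, where 11.1% of all genes tested were called higher and 15.6% lower. With X453_2 the counts were again 4 and 0, beside 11% of all genes higher and 23.1% lower. After division by GAPDH the counts of subunits called higher were 2 and 0, beside 7.18% and 3.31% of all genes, and 0 and 1 were called lower, beside 22.5% and 58.7%, GAPDH itself being called higher with X453_2 at a log2 fold change of 0.43. The comparisons share the X453_NC libraries, so the likeness of the counts is not independent evidence. In bulk RNA, a change in the share of cells that express a gene and a change in RNA per cell cannot be told apart.

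**Figure D1:**
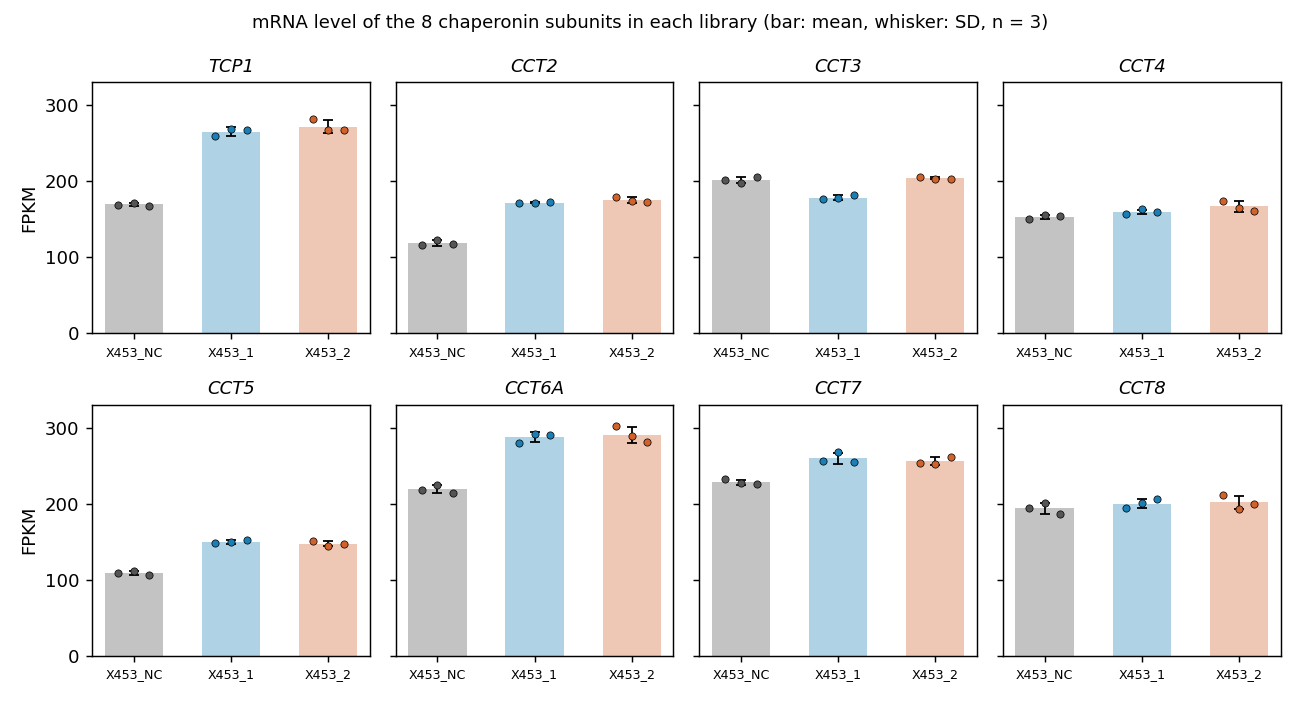
FPKM (y axis, from 0) of each subunit in the 9 libraries, one panel a gene, with points for libraries, bars for means and whiskers for the SD of 3 libraries. TCP1, CCT2, CCT5 and CCT6A stand higher in all X453_1 and X453_2 libraries than in all X453_NC libraries, CCT3 is lowest in X453_1, and CCT8 overlaps between the groups.

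TCP1 encodes the alpha subunit, the first of the family to be described, and its mRNA changed most. It lay at 169, 171 and 168 FPKM in the X453_NC libraries, at 259, 269 and 267 FPKM in X453_1 and at 281, 267 and 267 FPKM in X453_2. Every knockdown library stood above every control library, and the knockdown groups overlapped each other. The log2 fold change was 0.64 ± 0.029 (SE, n = 3 a group; adjusted p = 1.0e-07) with X453_1 and 0.68 ± 0.029 (adjusted p = 4.3e-08) with X453_2. These are rises of 1.56-fold and 1.60-fold, and both stayed above 0 after division by GAPDH, where the value with X453_2 was 0.25 and no longer called. Separation of control from knockdown libraries, here and below, is a description, as the share of all genes separating so was not counted. At an adjusted P of at most 0.05 with no fold limit, 32.1% of all genes were higher with X453_1 and 26% with X453_2.

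CCT2 encodes the beta subunit. Its level was 117, 123 and 117 FPKM in X453_NC, 171, 172 and 172 FPKM in X453_1 and 180, 174 and 172 FPKM in X453_2. The control libraries were again all below the knockdown libraries. This was a log2 fold change of 0.53 ± 0.029 (adjusted p = 4.0e-07) with X453_1 and 0.55 ± 0.029 (adjusted p = 1.6e-07) with X453_2, and 0.41 and 0.13 after division by GAPDH, the latter not called.

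CCT5 encodes the epsilon subunit, variants of which are known from a hereditary sensory neuropathy, and it had the lowest level of the 8 in every group. It lay at 109, 111 and 107 FPKM in X453_NC, 148, 149 and 152 FPKM in X453_1 and 151, 144 and 147 FPKM in X453_2. The groups with knockdown did not overlap with the control. CCT5 had a log2 fold change of 0.46 ± 0.028 (adjusted p = 8.2e-07) and 0.43 ± 0.028 (adjusted p = 6.9e-07). After division by GAPDH it was 0.34 and 0.0083, and both calls were lost.

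CCT6A encodes the zeta subunit of most tissues. It lay at 217, 225 and 214 FPKM in X453_NC, at 280, 292 and 290 FPKM in X453_1 and at 302, 288 and 281 FPKM in X453_2. The control libraries were the lowest 3 of the 9. The log2 fold change of 0.39 ± 0.033 (adjusted p = 5.2e-06) with X453_1 was close to the fold limit, and the call was lost without X453_NC_r2 (0.376), after a correction for transcript GC content (0.31) and after division by GAPDH (0.27). With X453_2 it was 0.41 ± 0.033 (adjusted p = 2.7e-06) and turned to -0.0203 after division by GAPDH.

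CCT7 encodes the eta subunit and had the highest level in the control. It lay at 232, 227 and 226 FPKM in X453_NC, at 256, 268 and 255 FPKM in X453_1 and at 254, 253 and 262 FPKM in X453_2. The control libraries again lay below all others, but the difference was smaller than for the 4 subunits above. With a log2 fold change of 0.18 ± 0.028 (adjusted p = 0.00029) and 0.16 ± 0.028 (adjusted p = 0.00048), CCT7 passed the adjusted P but not the fold limit, and the second value turned to -0.26 after division by GAPDH.

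CCT4, the delta subunit, lay at 151, 156 and 154 FPKM in X453_NC, 157, 163 and 160 FPKM in X453_1 and 174, 165 and 161 FPKM in X453_2. The control libraries were just below the others. For CCT4 the log2 fold change was 0.06 ± 0.033 (adjusted p = 0.15) with X453_1 and 0.12 ± 0.033 (adjusted p = 0.0091) with X453_2, and these turned to -0.0622 and -0.31 after division by GAPDH. The first also turned to -0.0175 after a correction for GC content. CCT8, the theta subunit, lay at 194, 201 and 186 FPKM in X453_NC, 194, 201 and 206 FPKM in X453_1 and 211, 193 and 200 FPKM in X453_2. Its groups overlapped. For CCT8 it was 0.05 (95% interval -0.04 to 0.14) with X453_1, which turned to -0.0731 after division by GAPDH, and 0.06 (-0.03 to 0.15) with X453_2, which turned to -0.37. With X453_1 CCT8 also turned to -0.0315 after a correction for GC content. In the FPKM as deposited, a rise by the fold limit lay outside both intervals.

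CCT3 encodes the gamma subunit and was, in the FPKM as deposited, the only one of the 8 with a lower mean in a knockdown group. It lay at 202, 198 and 205 FPKM in X453_NC, at 176, 177 and 182 FPKM in X453_1 and at 205, 203 and 203 FPKM in X453_2. The 3 libraries of X453_1 were below all others, while X453_2 overlapped with the control. The log2 fold change was -0.18 ± 0.025 (adjusted p = 0.00018) with X453_1, short of the fold limit. Over the alternative settings apart from division by GAPDH, that value ran from -0.20 to -0.089. With X453_2 the log2 fold change was 0.02 ± 0.025 (adjusted p = 0.60), which turned to -0.41 after division by GAPDH.

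**Figure D2:**
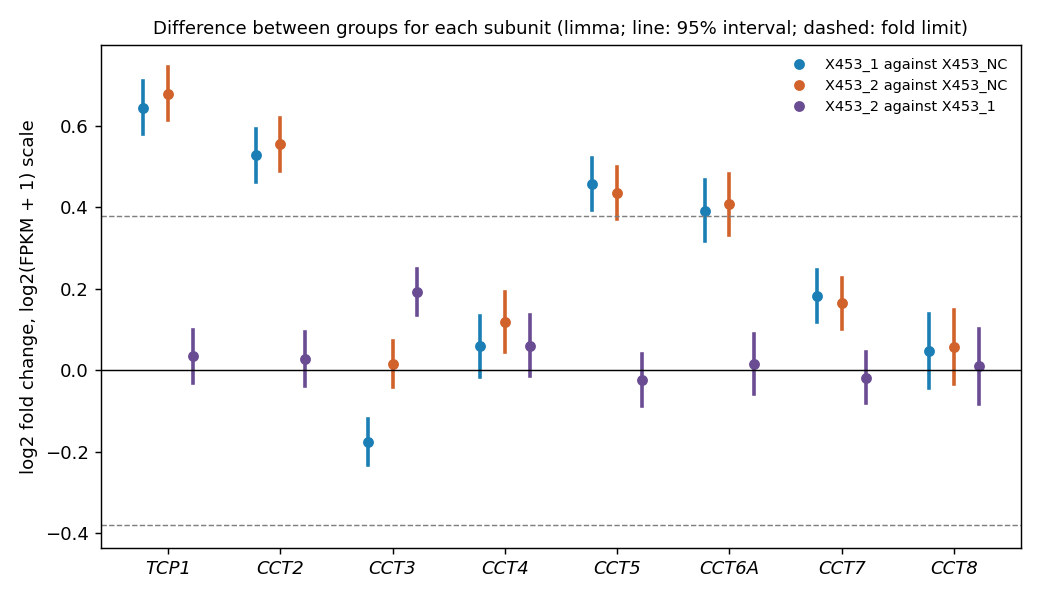
Log2 fold change on the log2(FPKM + 1) scale (y axis) of each subunit in the 3 comparisons, with points for the limma estimate, lines for the 95% interval and dashed lines at the fold limit of 0.38 in both directions. TCP1, CCT2, CCT5 and CCT6A lie above the limit in both comparisons with X453_NC, although after division by GAPDH the values with X453_2 turned to -0.0203 for CCT6A, -0.41 for CCT3, -0.31 for CCT4, -0.26 for CCT7 and -0.37 for CCT8, and those with X453_1 to -0.0622 for CCT4 and -0.0731 for CCT8. In the comparison of the knockdown groups CCT3 alone lies away from 0, and it turned to -0.115 after division by GAPDH.

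The log2 fold changes of the subunits ran from -0.18 to 0.64 with X453_1 and from 0.02 to 0.68 with X453_2. Their median log2 fold change was 0.29 with X453_1 and 0.29 with X453_2, beside 0.0032 and -0.095 for all genes tested. The second of these turned to -0.14 after division by GAPDH. That division moved the median of all genes to -0.10 and -0.46, and relative to it the median subunit stood 0.27 and 0.32 higher, against 0.28 and 0.38 in the FPKM as deposited. With an adjusted P of at most 0.05 and no fold limit, 5 subunits were higher and 1 lower with X453_1, where 32.1% of all genes were higher and 32.3% lower, and 6 were higher and 0 lower with X453_2, where 26% were higher and 44.8% lower. The lower genes made up 58.3% of all calls with X453_1 and 67.8% with X453_2. These shares were 43.6% and 65.0% after division by the summed FPKM, 58.4% and 53.2% after scaling by the median ratio, 51.5% and 55.9% after scaling by the upper quartile, and 75.8% and 94.7% after division by GAPDH. They were 48.6% and 50.1% after a correction for GC content and 51.9% and 51.7% after a correction for transcript length.

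The knockdown groups were also compared with each other. Of the 8 subunits 0 were called higher and 0 lower in X453_2 against X453_1, where 2.19% of all genes were called higher and 5.45% lower. With an adjusted P and no fold limit 1 subunit was higher and 0 lower, beside 10.2% and 33.9% of all genes. That subunit was CCT3, with a log2 difference of 0.19 ± 0.025 (adjusted p = 0.00037) and no overlap between the groups. This difference turned to -0.115 after division by GAPDH and ran from 0.13 to 0.30 over the other alternative settings. The other 7 differed by -0.02 to 0.06 on the log2 scale, with 95% intervals that reached from -0.09 to 0.13 and adjusted p of 0.17 to 0.87. Their signs were not stable under other scalings, as the median over the 8 was 0.02 here, -0.28 after division by GAPDH and -0.042 after division by the summed FPKM. Of all calls in this comparison 71.3% were lower, and this share was 38.0% after scaling by the median ratio, 57.6% after scaling by the upper quartile, 84.3% after division by the summed FPKM and 98.7% after division by GAPDH. It was 46.8% after a correction for GC content and 49.9% after a correction for transcript length.

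Because FPKM is per length, the subunits can be set side by side within a library. Their FPKM summed to 1393 ± 18.1 (SD, n = 3) in X453_NC, 1672 ± 27.1 in X453_1 and 1713 ± 39.3 in X453_2. The control sums lay between 1377 and 1413, those of X453_1 between 1641 and 1691 and those of X453_2 between 1687 and 1758, so the control stood apart and the knockdown groups overlapped. The sum was 0.266% ± 0.0057 of all FPKM in the control, 0.339% ± 0.0061 in X453_1 and 0.333% ± 0.0076 in X453_2. All FPKM of a library summed to less in X453_1, 489794 to 495332, than in X453_2, 514099 to 515887, or X453_NC, 518190 to 531890.

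The make-up of the pool shifted. The share of TCP1 in the summed FPKM of the 8 subunits was 12.2% ± 0.024 in X453_NC, 15.9% ± 0.061 in X453_1 and 15.9% ± 0.14 in X453_2. That of CCT3 went the other way, from 14.5% ± 0.45 to 10.7% ± 0.17 and 11.9% ± 0.20. CCT8 held 13.89% ± 0.36, 11.97% ± 0.22 and 11.76% ± 0.27 although its FPKM overlapped between the groups. The shares of CCT2 and CCT5 were higher in both knockdown groups, CCT2 at 10.3% and 10.2% against 8.54% and CCT5 at 8.95% and 8.60% against 7.81%. CCT6A held 15.7%, 17.2% and 17.0% in the order X453_NC, X453_1 and X453_2. CCT4 held less in both knockdown groups, with 9.56% and 9.73% against 11.01%, and CCT7 held 16.4%, 15.5% and 15.0% in the same order. For all 8 subunits the control libraries stood outside the range of the knockdown libraries. The shares of a library add up to the whole, so rises in some subunits lower the shares of the others. The 8 separations are thus not independent of each other.

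**Figure D3:**
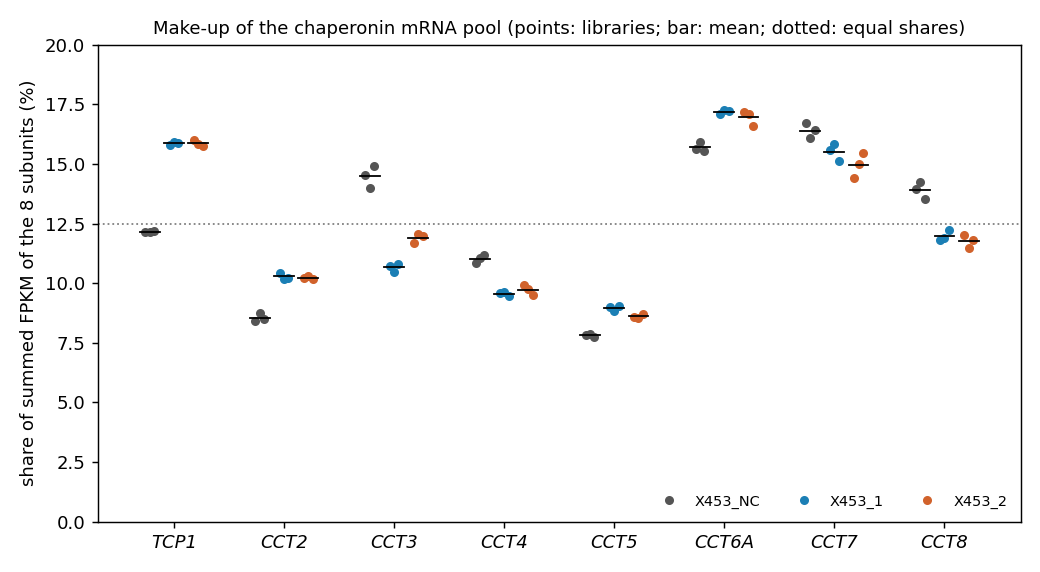
Share of each subunit in the summed FPKM of the 8 subunits (y axis, percent), with points for the 9 libraries, bars for group means and a dotted line where all shares would be equal. TCP1 moves from 12.2% in X453_NC to 15.9% in both knockdown groups, and CCT3 from 14.5% to 10.7% and 11.9%.

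The order of the levels changed with it. In X453_NC it ran CCT7, CCT6A, CCT3, CCT8, TCP1, CCT4, CCT2 and CCT5 from high to low, and of the neighbours in this order CCT3 and CCT8 alone overlapped. In X453_1 it ran CCT6A, TCP1, CCT7, CCT8, CCT3, CCT2, CCT4 and CCT5, with TCP1 and CCT7 overlapping. In X453_2 it ran CCT6A, TCP1, CCT7, CCT3, CCT8, CCT2, CCT4 and CCT5, with overlaps of CCT6A with TCP1, CCT3 with CCT8 and CCT2 with CCT4. TCP1 thus went from the fifth place to the second. The coefficient of variation over the 8 was 24.9% to 26.3% in X453_NC, 25.2% to 26.6% in X453_1 and 24.5% to 24.9% in X453_2. The ranges of X453_NC and X453_1 overlapped, and that of X453_2 overlapped the control only at its upper end. The ratio of the highest to the lowest subunit was 2.04 to 2.14 in the control libraries, 1.90 to 1.96 in X453_1 and 1.907 to 2.004 in X453_2, so it was lower in all knockdown libraries. The summed FPKM of TCP1, CCT2, CCT5 and CCT6A, a split chosen from these values and so a description, was 0.793 of that of the other 4 in the control, 1.10 in X453_1 and 1.07 in X453_2.

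On GRCh37, the build the submitters' processing notes name, the genes lie on 7 chromosomes. TCP1 (gene ID 6950) is at chr6:160199530-160210735 on the minus strand, CCT2 (10576) at chr12:69979208-69995357 on the plus strand, CCT5 (22948) at chr5:10250033-10266524 on the plus strand and CCT6A (908) at chr7:56119378-56131682 on the plus strand. CCT3 (7203) is at chr1:156278752-156308206 on the minus strand, CCT4 (10575) at chr2:62095262-62115806 on the minus strand, CCT7 (10574) at chr2:73461364-73480150 on the plus strand and CCT8 (10694) at chr21:30428643-30446118 on the minus strand. These spans are of whole genes, exons and introns together. Some reads could be shared with pseudogenes, as 8.59% of the 50-base windows of CCT8 transcripts, 7.80% of those of TCP1, 6.67% of CCT6A and 2.73% of CCT5 occurred in another gene, and none of those of the other 4. TCP1 overlaps 615 bases of ACAT2 on the opposite strand. ACAT2, at 17.9 to 22.4 FPKM, was lower with a log2 fold change of -0.14 and -0.16 and was not called, while TCP1 was higher. CCT3 overlaps 1102 bases of TSACC, which lay between 0.18 and 1.55 FPKM. The GC content of the transcripts ran from 43.1% for CCT8 to 51.3% for CCT7, and CCT3 with 51.2% and CCT7 stood above the other 6. Of the 3144 genes with a GC content in that range, 14.0% were called higher with X453_1 and 12.6% with X453_2.

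The 4 subunits called higher are on different chromosomes, and their promoters were compared for a letter pattern that heat-shock factors are known to bind. The RefSeq promoter windows of GRCh38.p14, 250 bases before to 50 after a listed start, held 7 of the 8 genes, and CCT6A had no entry. The pattern searched was GAANNTTC or TTCNNGAA, each its own reverse complement, so that a match counts on both strands. It was found in the windows of TCP1, of CCT2 at the downstream of its listed starts, and of CCT4 at 1 of its listed starts, and in 13.5% of all 35116 windows. The letters were not in the windows listed for CCT3, CCT5, CCT7 and CCT8, and other starts were not searched. The window listed for CCT5 may belong to a later start of the gene, so it may not describe the main promoter. The windows that hold the pattern are shown with that of CCT3, whose mRNA had the other direction with X453_1. They are written 5′ to 3′ on the strand of the gene, with the pattern in capitals.
TCP1, chr6:159789553-159789852, minus strand: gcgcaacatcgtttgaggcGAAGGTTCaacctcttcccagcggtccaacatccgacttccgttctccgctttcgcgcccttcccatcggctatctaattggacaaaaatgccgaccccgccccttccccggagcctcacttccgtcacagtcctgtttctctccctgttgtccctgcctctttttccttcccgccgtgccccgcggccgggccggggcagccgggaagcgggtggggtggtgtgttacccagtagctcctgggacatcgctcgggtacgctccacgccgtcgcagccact
CCT2, chr12:69585639-69585938, plus strand: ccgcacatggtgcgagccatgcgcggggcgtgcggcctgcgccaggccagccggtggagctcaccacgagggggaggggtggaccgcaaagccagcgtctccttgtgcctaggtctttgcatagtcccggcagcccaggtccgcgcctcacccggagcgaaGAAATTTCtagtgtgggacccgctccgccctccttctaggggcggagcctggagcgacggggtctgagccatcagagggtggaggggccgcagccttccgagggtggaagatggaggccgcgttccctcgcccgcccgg
CCT4, chr2:61888607-61888906, minus strand: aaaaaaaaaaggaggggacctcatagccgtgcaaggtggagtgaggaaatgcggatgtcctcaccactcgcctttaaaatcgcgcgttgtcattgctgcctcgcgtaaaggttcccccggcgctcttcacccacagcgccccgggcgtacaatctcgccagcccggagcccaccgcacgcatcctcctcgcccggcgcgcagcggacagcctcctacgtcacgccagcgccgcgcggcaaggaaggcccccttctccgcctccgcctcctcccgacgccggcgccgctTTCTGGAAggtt
CCT3, chr1:156338243-156338542, minus strand: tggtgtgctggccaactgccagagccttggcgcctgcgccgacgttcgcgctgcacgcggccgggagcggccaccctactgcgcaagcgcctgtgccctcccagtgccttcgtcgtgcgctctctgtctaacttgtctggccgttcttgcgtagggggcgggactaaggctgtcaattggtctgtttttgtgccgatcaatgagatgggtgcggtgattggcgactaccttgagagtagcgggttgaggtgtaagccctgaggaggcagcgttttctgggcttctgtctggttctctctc

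The match started at -231 from the listed start in TCP1, at -89 in CCT2 and at 39 bases after the start in CCT4. Of these 3 genes TCP1 and CCT2 were called higher and CCT4 was not. A match of letters is a description and not a bound site.

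Several subunit genes share a short stretch of DNA with a gene read in the other direction. On GRCh37, 5 of the 8 had such a neighbour within 1000 bases, start to start, a rule chosen after values had been seen. The start of MRPL18, a protein of the mitochondrial ribosome, lies 40 bases from that of TCP1. MRPL18 lay at 67.9, 64.3 and 61.2 FPKM in X453_NC, 90.0, 92.8 and 93.3 FPKM in X453_1 and 114, 115 and 115 FPKM in X453_2. The 3 groups did not overlap, whereas the knockdown groups overlapped for TCP1. Its log2 fold change was 0.51 ± 0.037 (adjusted p = 2.0e-06) with X453_1 and 0.82 ± 0.037 (adjusted p = 5.8e-08) with X453_2, both called.

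PSPH, the phosphatase of the last step of serine synthesis, starts 110 bases from CCT6A. It lay at 37.2, 36.5 and 37.2 FPKM in X453_NC, 24.89, 25.04 and 24.97 FPKM in X453_1 and 26.97, 24.68 and 25.10 FPKM in X453_2. All knockdown libraries were below the control, the reverse of CCT6A. PSPH fell, with a log2 fold change of -0.55 ± 0.036 (adjusted p = 1.2e-06) and -0.52 ± 0.036 (adjusted p = 1.0e-06). FAM173B, which starts 12 bases from CCT5, had a log2 fold change of -0.20 with X453_1, not called, and fell by 0.42 with X453_2, a call lost after scaling by the median ratio (-0.33) and without X453_2_r2 (-0.37). CCT5 was called higher in both comparisons. COMMD1, 52 bases from CCT4, was not called, at -0.17 and 0.06, the latter turning to -0.32 after division by GAPDH. PRADC1, 952 bases from CCT7, was at 0.01 with X453_1 and was called higher at 0.40 with X453_2, a call lost after division by GAPDH (0.02), without X453_2_r1 (0.33) and without X453_NC_r1 (0.38).

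**Figure D4:**
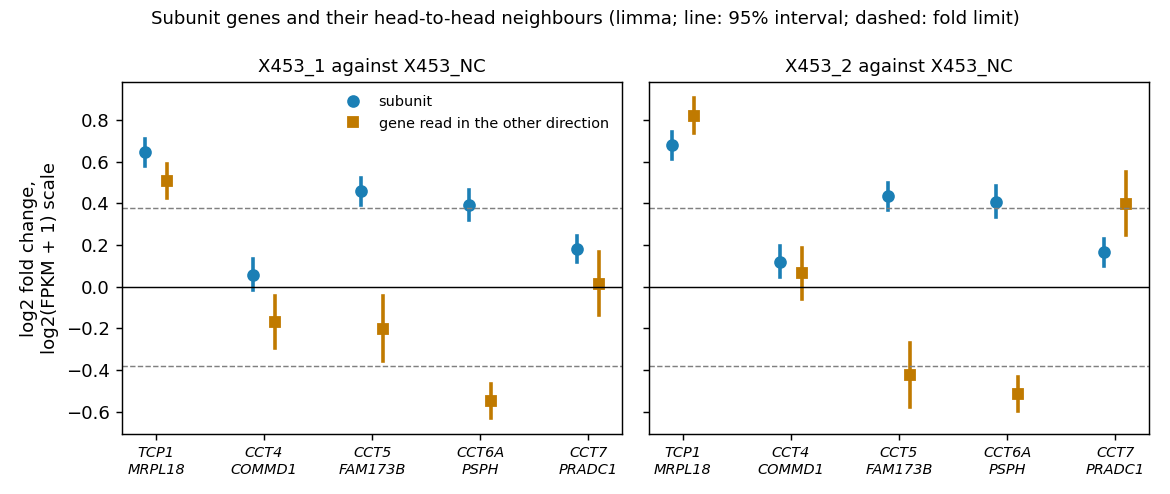
Log2 fold change on the log2(FPKM + 1) scale (y axis) of 5 subunits (circles) and of the gene that starts nearby on the other strand (squares), with lines for the 95% interval and dashed lines at the fold limit. TCP1 and MRPL18 lie above 0 together, while PSPH lies at -0.55 and -0.52 where CCT6A lies at 0.39 and 0.41, the latter turning to -0.0203 after division by GAPDH, as did CCT4 to -0.31 and CCT7 to -0.26 with X453_2 and CCT4 to -0.0622 with X453_1.

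The partners and clients of TRiC were taken from lists compiled from general knowledge, with earlier results of these data known. Of the 6 prefoldin genes 5 were tested, and 0 were called in either direction with X453_1 or X453_2. Over all genes 11.1% were called higher and 15.6% lower with X453_1, and 11% and 23.1% with X453_2, so 0 of 5 is near this background, as are the counts of 0 for the other short lists below. Their log2 fold changes ran from -0.23 to 0.03 with X453_1 and from -0.16 to 0.14 with X453_2. PFDN6, at 34.7 to 39.2 FPKM in X453_NC, had a log2 fold change of -0.23 (adjusted p = 0.011) and -0.16 (adjusted p = 0.049), short of the fold limit. PFDN5 was at -0.09 and -0.02, and PFDN4 was at 0.03 in both, which turned to -0.38 with X453_2 after division by GAPDH. VBP1, the sixth, lay between 0 and 1.31 FPKM and was not tested.

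Of the 5 phosducin-like and other cofactors 4 were tested and 0 called. TXNDC9, a phosducin-like protein, was at -0.0025 with X453_1 and -0.28 with X453_2 (adjusted p = 0.00045). PDCD5, a small binding partner of the complex, was at 0.02 and 0.21 (adjusted p = 0.00057), which turned to -0.10 and -0.21 after division by GAPDH. PDCL, which helps TRiC assemble G protein beta subunits, was at 0.10 and -0.02. Among genes related to the subunits, MKKS and BBS10, parts of a chaperonin-like complex for cilia, were tested and not called, with log2 fold changes of 0.08 and 0.17 with X453_1 and -0.12 and -0.10 with X453_2. CCT6B, the form of the zeta subunit known from testis, lay between 0.28 and 0.71 FPKM and BBS12 between 0.11 and 0.43 FPKM, and neither was tested.

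The chaperonin of mitochondria is a separate machine made of HSPD1 and its lid HSPE1. HSPE1 lay at 83.0, 80.2 and 77.0 FPKM in X453_NC, 153, 140 and 152 FPKM in X453_1 and 170, 166 and 170 FPKM in X453_2. The groups did not overlap, and the log2 fold change was 0.88 ± 0.041 (adjusted p = 1.2e-07) and 1.07 ± 0.041 (adjusted p = 2.0e-08). HSPD1, at 415 to 433 FPKM in X453_NC, was not called, at -0.05 and 0.12, the latter turning to -0.31 after division by GAPDH.

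Of the 14 actin and tubulin genes, the main clients of TRiC, 2 were called higher and 2 lower in each comparison with X453_NC, counts near the background of 11.1% and 15.6% of all genes with X453_1 and 11% and 23.1% with X453_2. ACTB and TUBA1A were called higher with X453_1, ACTB at 0.57 and TUBA1A at 0.51, and TUBA1A at 0.55 and TUBA4A at 0.47 with X453_2. The call of TUBA1A with X453_2 was lost after division by GAPDH, at 0.13. TUBB2B fell by 0.73 and 0.74 and TUBB3 by 0.42 and 0.63 on the log2 scale, the latter gene losing both calls after a correction for GC content, at -0.16 and -0.34. The call of TUBB3 with X453_1 was also lost without X453_1_r2 (-0.36) and without X453_NC_r2 (-0.37). Actin and tubulin genes have near-identical copies, so the split of their reads is uncertain. The median over the 14 was 0.06 with X453_1 and 0.06 with X453_2. Of 6 tubulin folding cofactors, which take over chains released by TRiC, TBCC alone was called, lower with X453_2 at -0.51 (adjusted p = 4.0e-06) and at -0.12 with X453_1. ARL2 was at 0.20 and 0.11. It was called higher in both comparisons after a correction for GC content, at 0.48 and 0.42, and turned to -0.31 with X453_2 after division by GAPDH. TBCE was at 0.06 and 0.05.

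Among the WD40 and other clients 16 of 17 were tested. With X453_1 3 were called higher and 2 lower, and with X453_2 3 higher and 4 lower, also near the background of 11.1% and 15.6% and of 11% and 23.1% of all genes. CCNE1, cyclin E1, lay at 1.83, 1.18 and 1.90 FPKM in X453_NC, 2.92, 2.95 and 3.29 FPKM in X453_1 and 4.01, 3.62 and 4.07 FPKM in X453_2, and its log2 fold change was 0.63 and 0.90. PPP2R2A, a regulatory subunit of protein phosphatase 2A, was called higher at 0.63 and 0.61, and at 0.19 with X453_2 after division by GAPDH it was not called. MLST8, a WD40 protein of the mTOR complexes, fell by 0.67 and 0.78, and after a correction for GC content was not called, at -0.26 and -0.37. The list median was 0.07 with X453_1 and 0.0043 with X453_2.

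Of the 3 transcription factors listed, ZNF143, a zinc finger activator known to bind chaperonin subunit promoters, was called higher. It lay at 11.8, 12.6 and 11.6 FPKM in X453_NC, 17.0, 17.0 and 16.7 FPKM in X453_1 and 18.0, 18.1 and 18.0 FPKM in X453_2, with no overlap between any of the 3 groups. ZNF143 had a log2 fold change of 0.46 ± 0.036 (adjusted p = 3.3e-06) and 0.55 ± 0.036 (adjusted p = 7.1e-07), and after division by GAPDH it was not called, at 0.35 and 0.15. HSF1, the main heat-shock factor, was called lower at -0.83 ± 0.25 (adjusted p = 0.015) and -0.78 ± 0.25 (adjusted p = 0.018), with levels of 8.52 to 12.5 FPKM in X453_NC, 3.37 to 7.69 FPKM in X453_1 and 4.21 to 7.65 FPKM in X453_2. Both calls were lost after a correction for GC content, at -0.45 and -0.39. HSF2 was not called, at -0.16 and -0.21.

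A list of 12 other heat-shock genes, cytosolic chaperones of other families and proteins that assist them, was set beside the subunits. It too was chosen with earlier results of these data known, so its counts are a description. With X453_1 9 were called higher and 0 lower, and with X453_2 11 higher and 0 lower, where 11.1% and 11% of all genes were called higher, with medians of 0.88 and 1.04. Their FPKM summed to 2441 to 2501 in X453_NC, 3480 to 3546 in X453_1 and 5382 to 5567 in X453_2, so these sums differed between the knockdown groups where those of the TRiC subunits overlapped. DNAJB1, a partner of the HSP70 chaperones, lay at 65.3 to 67.4 FPKM in X453_NC, 181 to 192 FPKM in X453_1 and 622 to 696 FPKM in X453_2. HSPA1A and HSPA1B, the stress-inducible HSP70 genes, had log2 fold changes of 1.83 and 1.83 with X453_1 and 4.22 and 4.54 with X453_2. They are near-identical copies, so the split between them is uncertain. HSP90AB1 was called in neither comparison, at -0.08 and -0.0082.

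**Figure D5:**
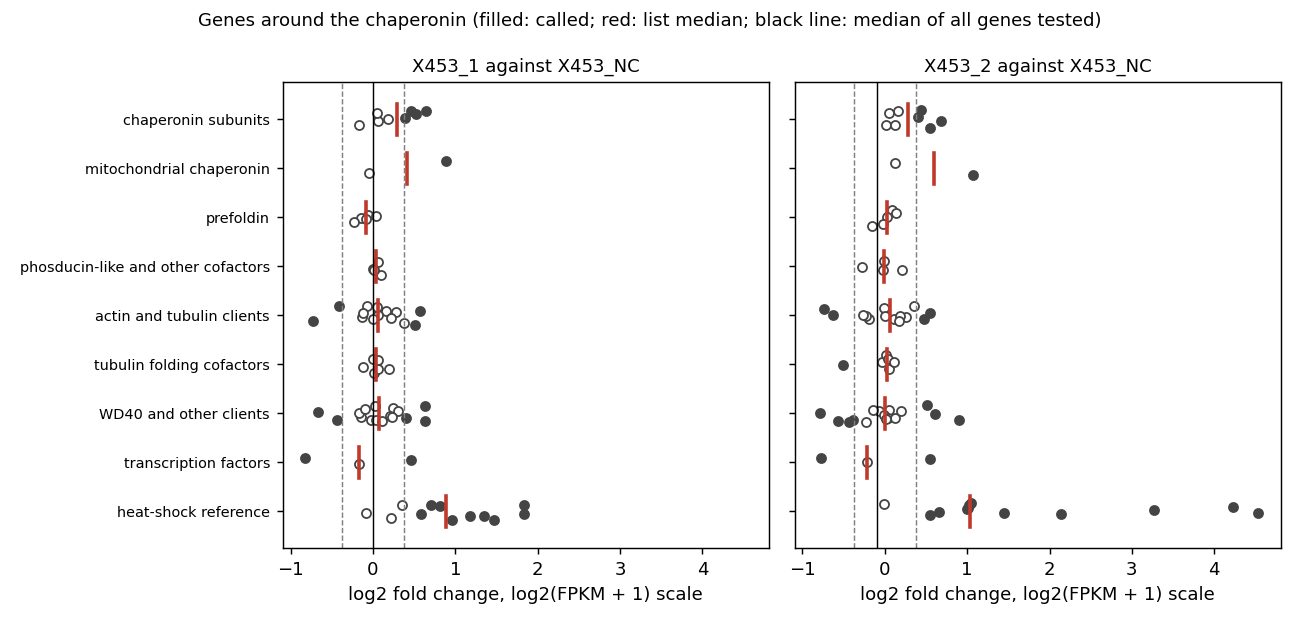
Log2 fold change on the log2(FPKM + 1) scale (x axis) of the tested genes of each list (y axis) against X453_NC, with X453_1 on the left and X453_2 on the right, filled points for called genes, red bars for list medians, a black line for the median of all genes tested and dashed lines at the fold limit. The TRiC subunits have a median of 0.29 in both panels, which turned to -0.14 with X453_2 after division by GAPDH, and the heat-shock genes one of 0.88 and 1.04.

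The genes whose pattern over the 9 libraries was most like the mean log2 level of the 8 subunits were XRCC6, PRDX1, ERO1A, ODC1 and TIPARP, with Pearson's r of 0.996 to 0.997 over 9 libraries. With 3 groups, such an r describes mostly the difference between the control and the rest. XRCC6, a DNA end-binding protein, had log2 fold changes of 0.21 and 0.24, below the fold limit. PRDX1, a peroxiredoxin, was called higher at 0.64 and 0.68, and ODC1, the first enzyme of polyamine synthesis, at 0.63 and 0.70. ERO1A, an oxidase of the endoplasmic reticulum, was called higher at 0.61 and 0.74, and TIPARP, an ADP-ribosyltransferase, at 0.87 and 1.02.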

How the data were processed

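RNA sequencing was performed by the authors on the BGISEQ-500 platform for 9 libraries, 3 in each of the groups X453_NC, X453_1 and X453_2. The authors deposited 1 table with FPKM per gene and library, rounded to 2 decimals. The submitters' processing notes name Bowtie2 version 2 and the genome build GRCh37.p13, and the counting tool was not given in the sources used here. The table repeats the FPKM columns with identical numbers, so a single set was read. Of 19934 lines, 4 held no values. The authors' log2 ratios between groups and their p-values and q-values were not used.

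The test was limma 3.58.1 under R 4.3.3, with lmFit and the trend option of eBayes, on log2(FPKM + 1). It covered 12884 genes whose average over the libraries reached 1 FPKM, all 9 libraries in 1 fit, with the group as the only factor. Fold changes on this scale understate those of low genes. The call needed both a 1.3-fold change and an unadjusted P no higher than 0.05, and adjusted p is Benjamini-Hochberg over all genes tested. With 3 libraries against 3, the smallest p of an exact permutation test is 0.1, and none was run. The steps were tested on simulated data.

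Depth was taken from the size of the steps in low FPKM, at 23.4 to 28.0 M fragments a library, and counts were not rebuilt. Fragments per gene are such estimates and cover counting error only. Groups came from the labels of the libraries. The members and the gene lists were chosen with earlier results of these data known. Named genes were the 8 subunits, the 3 genes of each list with the largest absolute mean log2 fold change against X453_NC, HSPD1 and HSPE1, and the 5 genes outside the 8 whose log2 level correlated best with the mean of the subunits. Further genes, among them the neighbours, the overlapping genes, ACTB, TUBA4A, HSP90AB1 and GAPDH, were named after their values had been seen. Promoter windows came from RefSeq on GRCh38.p14 and were not mixed with GRCh37 coordinates. One marker of the cell line is not reported here.

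Alternatives were an added value of 0.1 FPKM, no filter or a minimum of 5 FPKM, other scalings, other call rules, only the 6 libraries compared, the replicate label as a block, corrections for GC content and transcript length, and each library left out in turn. Division by the summed FPKM was chosen after seeing the data. Same-labelled libraries did not deviate together, with correlations of -0.24 to 0.10. Python 3.11.15, numpy 2.4.6, pandas 2.3.3 and matplotlib 3.10.9 served for the tables and plots.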

Additional observations from a re-analysis of the deposited data

Results flagged for a closer look

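The values below are log2 differences of X453_2 against X453_1, given because the limma test of this difference had an adjusted p of at most 0.05. By this rule 10.2% of all genes were higher and 33.9% lower, so such differences were common. Among the subunits CCT3 alone was of this kind, at 0.19 (adjusted p = 0.00037), which turned to -0.115 after division by GAPDH. The mitochondrial chaperonin genes HSPD1 at 0.17 (adjusted p = 0.0012) and HSPE1 at 0.19 (adjusted p = 0.0050) were higher with X453_2. After division by GAPDH HSPD1 turned to -0.133 and HSPE1 to -0.118. Of the cofactors, PDCD5 was higher at 0.20 (adjusted p = 0.0027), while TXNDC9 at -0.28 (adjusted p = 0.0015) and PDCL at -0.12 (adjusted p = 0.032) were lower. PDCD5 turned to -0.108 after division by GAPDH. The chaperonin-related genes BBS10 at -0.27 (adjusted p = 0.0020) and MKKS at -0.20 (adjusted p = 0.0017) were lower, as were the tubulin cofactor TBCC at -0.39 (adjusted p = 0.00015) and the tubulin TUBB3 at -0.21 (adjusted p = 0.036).

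Of the genes beside the subunits, MRPL18 at 0.31 (adjusted p = 0.00020), PRADC1 at 0.38 (adjusted p = 0.0018) and COMMD1 at 0.23 (adjusted p = 0.0073) were higher with X453_2, and FAM173B at -0.22 (adjusted p = 0.027) was lower. After division by GAPDH COMMD1 turned to -0.042 and PRADC1 fell to 0.11. Of the genes most like the subunits in pattern, ERO1A differed by 0.12 (adjusted p = 0.041) and TIPARP by 0.16 (adjusted p = 0.011). The heat-shock genes DNAJB1 at 1.80 (adjusted p = 2.5e-08), HSPA1A at 2.39 (adjusted p = 2.6e-07) and HSPA1B at 2.70 (adjusted p = 6.7e-07) differed most.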

How the results depend on the processing

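The counts of subunits called changed by over 1.5 times with 2 settings. After division by GAPDH, 2 were called higher with X453_1, beside 7.18% of all genes, and with X453_2 0 were called higher and 1 lower, beside 3.31% and 58.7%. With an adjusted P and no fold limit, 1 was called lower with X453_1 and 1 higher in X453_2 against X453_1. Division by GAPDH also turned, with X453_2, the median of the subunits to -0.14, CCT3 to -0.41, CCT4 to -0.31, CCT6A to -0.0203, CCT7 to -0.26, CCT8 to -0.37 and PFDN4 to -0.38. In the same comparison it turned PDCD5 to -0.21, HSPD1 to -0.31, ARL2 to -0.31, TBCE to -0.35 and COMMD1 to -0.32. The median in X453_2 against X453_1 turned to -0.28 with GAPDH, to -0.042 after division by the summed FPKM and to -0.00173 without the X453_2 library with no suffix, the lowest when each library was left out in turn, where the highest was 0.0383. The cause was not tested. Leaving out each library in turn gave 3 to 4 subunits called higher with X453_1, 4 with X453_2 and 0 in X453_2 against X453_1, and 0 called lower in each comparison. CCT6A with X453_1 was the call lost, without X453_NC_r2. After a correction for GC content 3 and 4 subunits were called higher. With the replicate block, the replicate label as a block in the fit, the counts were 4, 4 and 0 and the medians 0.29, 0.29 and 0.02, and it changed no call of a subunit. Over the 8 subunits and all settings and comparisons, 483 values kept their direction and side of the threshold, 7 lost the call, 5 gained one and 33 changed sign, 24 of these in X453_2 against X453_1 and 13 after division by GAPDH. Each subunit rested on at least 6619 estimated fragments in a library, so depth limited these values little. No protein was measured, and the libraries of a group may be technical replicates.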
